A study of Rattus norvegicus with 250 samples.

Results

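Among the genes measured by RNA-Seq in the rat hippocampus, 150 were chosen by the strength of their fall with the intergenic fraction of the library, out of 13743 genes with a mean of at least 1 CPM (a gene's counts as parts per M, or mega, counts of its library). The intergenic fraction is the share of aligned bases that lay outside annotated genes, recomputed here as what remained after the mRNA, intronic and rRNA fractions of each library. For each gene, Pearson r between log2(CPM + 0.5) and this fraction was computed over 245 libraries, and the 150 genes with the most negative r were taken. These values selected the genes, so they are given as a description and not as a finding. All 150 genes passed the filters of every test that follows, and none was lost to low counts.

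The libraries came from F2 rats of a cross between the bHR line (bred High Responders) and the bLR line (bred Low Responders), selected for high or low locomotion in an unfamiliar place. Each of the 250 rats gave 1 polyA library from pooled punches of dorsal and ventral hippocampus, and all were adults from 113 to 132 days old with no drug or genetic treatment in the labels. The labels mark 5 libraries as failures of quality control, and the main analyses use the other 245, from 122 males and 123 females. The rats belong to 12 labelled families of 13 to 27 of these rats each, and each family holds both sexes, so rats of a family are kin. A subset of 208 of these rats had been trained in Pavlovian Conditioned Approach (PavCA), a task that scores whether a rat approaches a lever (sign-tracking) or a food magazine (goal-tracking). Behavior was also scored as LocoScore (beam breaks in an unfamiliar enclosure) and on the elevated plus maze (EPM) as distance, time immobile and percentage of time in the open arms.

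In a polyA library most aligned bases fall on spliced transcripts, and the bases that fall elsewhere are summarized as intronic, intergenic or rRNA fractions. Such fractions describe the composition of the RNA and of the library rather than the state of any single pathway. RIN and median CV coverage are used in the same way, and both are read beside the genes here. The RNA Integrity Number (RIN) is higher for more intact RNA. Median CV coverage is the coefficient of variation of read depth along transcripts, so that a low value means even coverage. CPM is a relative measure: when one set of genes takes a larger share of a library, the others must take a smaller one.

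Total counts ran from 17.9 to 31.5 M per library (median 21.6 M), and no library stood apart by depth. The intergenic fraction was 13.4% ± 1.70 (SD, n = 245) and ranged from 9.91 to 17.3%. RIN ranged from 8.4 to 9.7 and median CV coverage from 0.407 to 0.508. For the check of the tissue label, Slc17a7, the vesicular glutamate transporter of hippocampal pyramidal cells, lay between 446 and 2469 CPM, and Rbfox3, a marker of neuronal nuclei, between 36.8 and 222 CPM. Both went against the members, with correlations of 0.893 and 0.931 with the intergenic fraction. The choroid plexus marker Folr1 ran from 0.211 to 97.5 CPM (median 21.4), and its correlation with the intergenic fraction was -0.425. The ependymal marker Tmem212 lay between 0.158 and 11.8 CPM, with a correlation of -0.598. The part of these cell types in the members' levels was not tested. As these are bulk samples, fewer cells of a type and less RNA per cell cannot be told apart.

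Gene names could be given for 18 of the 150 genes (12%), close to the 13.4% of all 13743 genes that could be named, since the count table holds Ensembl identifiers and the pairing used here covers only part of the genome. All 16 named genes whose promoter was found lie on chromosome 1, so the names depend on position and need not stand for the set. They are involved in protein turnover (Psmb1, Psmd13, Erlin1), in mitochondria (Uqcrc2, Sdhaf2, Prdx3, Mrpl16, Ngrn, Armc1), in RNA and protein methylation (Prmt1, Clns1a, Wtap), in ribosome assembly (Riok2, Ltv1) and in protein repair and signaling (Pcmt1, Ppp1ca, Ilk, Pdcd6). The other 132 are described by their counts and ranges.

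Promoters were read for the named genes as a description. That all 150 varied together across libraries follows at least in part from their choice and by itself is no sign of a shared motif. RefSeq promoters (assembly GRCr8) matched 16 of the 18 symbols, and the 250 bases before the start of 4 of them follow, 5′ to 3′ on the strand of the gene, with the motif letters in capitals. Pcmt1 is shown as the gene with the most negative r, Ppp1ca for its GC boxes, and Clns1a and Uqcrc2 for their ETS motifs.

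Pcmt1, chr1:3964849-3965098, minus strand: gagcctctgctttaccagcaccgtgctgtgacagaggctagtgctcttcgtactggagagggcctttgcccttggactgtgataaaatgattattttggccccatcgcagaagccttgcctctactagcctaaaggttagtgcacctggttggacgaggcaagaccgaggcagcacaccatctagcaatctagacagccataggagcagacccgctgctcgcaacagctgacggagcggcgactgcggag
Ppp1ca, chr1:210914326-210914575, plus strand: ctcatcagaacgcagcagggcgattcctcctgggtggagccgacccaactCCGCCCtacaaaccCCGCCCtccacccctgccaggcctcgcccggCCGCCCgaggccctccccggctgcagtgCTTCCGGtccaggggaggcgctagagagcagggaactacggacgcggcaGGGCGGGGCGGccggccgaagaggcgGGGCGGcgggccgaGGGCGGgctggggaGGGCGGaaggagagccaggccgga
Clns1a, chr1:161430419-161430668, plus strand: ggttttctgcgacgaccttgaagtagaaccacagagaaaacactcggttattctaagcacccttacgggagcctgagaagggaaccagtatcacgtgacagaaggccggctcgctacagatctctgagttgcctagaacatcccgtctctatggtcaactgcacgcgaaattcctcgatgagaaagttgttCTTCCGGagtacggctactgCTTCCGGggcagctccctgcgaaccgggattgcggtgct
Uqcrc2, chr1:184598990-184599239, plus strand: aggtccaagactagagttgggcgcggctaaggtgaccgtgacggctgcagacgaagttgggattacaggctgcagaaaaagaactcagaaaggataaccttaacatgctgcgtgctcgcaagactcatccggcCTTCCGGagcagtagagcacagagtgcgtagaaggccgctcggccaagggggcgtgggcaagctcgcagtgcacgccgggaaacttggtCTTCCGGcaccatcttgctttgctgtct

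Each motif was searched on both strands, and a GC box next to another may share letters with it. The ETS motif CCGGAAG, written CTTCCGG on the other strand, was in 8 of the 16 promoters (50%). It was in 13.9% of the 1482 promoters of genes that could be named, and in 7.74% of all 26717 promoters compared. These had the same length, with 1 promoter per symbol and 1 chromosome left out. Ppp1ca held 8 GC boxes (GGGCGG), and 10 of the 16 promoters (62.5%) held at least 1, against 57.5% of the promoters of named genes and 32.4% of all promoters. The CCAAT box was in 37.5%, 35.4% and 34.3% of these promoters, and TATAAA in 6.25%, 6.34% and 13.1%. Median GC content was 59% in the 16 promoters and 59.6% in those of all named genes. These are matches of letters in a window, among 4 motifs searched, and no test was made of them. The promoters compared were not matched to the 16 by abundance of their genes.

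Across the 13743 genes, r with the intergenic fraction was spread to both ends. It lay below -0.9 for 1544 genes (11.2%), which held 20.8% of all counts, and above 0.9 for 1164 genes (8.47%), which held 16.6%, while the median was 0.366. The 150 genes ran from -0.962 (Pcmt1) to -0.944, with a median of -0.948. The limit fell in a dense part of this range: the last gene inside (ENSRNOG00000017952) had r = -0.9443 and the first outside (ENSRNOG00000009310) had r = -0.9442. The 150 genes are therefore the end of a continuous group, with no gap that sets them apart.

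**Figure D1:**
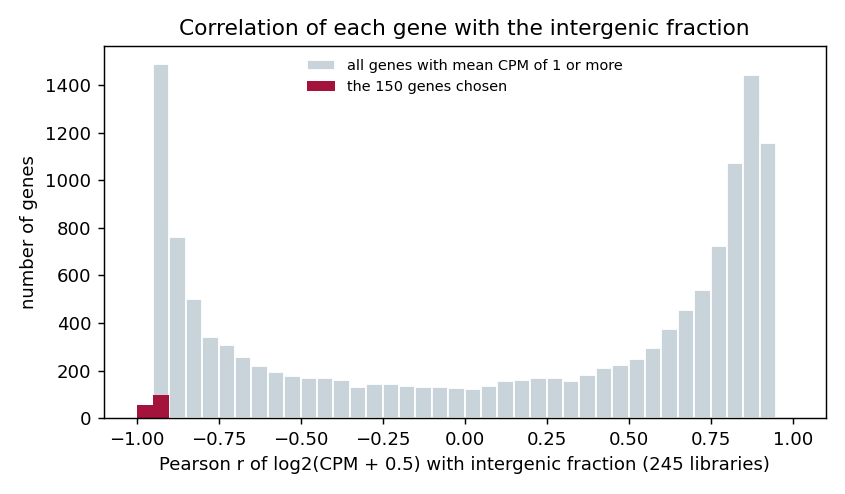
Number of genes (y axis) by Pearson r of log2(CPM + 0.5) with the intergenic fraction over 245 libraries (x axis, bins of 0.05), for all 13743 genes in grey and the 150 chosen genes in red. The genes pile up at both ends, and the 150 chosen genes, from -0.962 to -0.944, are the edge of the left pile.

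The set was made of well-expressed genes. Mean CPM of its members ran from 21.0 to 1055 (median 98.9), against a median of 24.5 over all genes, and only 2 of the 150 lay below that median. By mean CPM, 109 were in the top 25% of genes and 43 in the top 10%. The most abundant was ENSRNOG00000051650, with 527 CPM in the lowest library, a median of 991 and 1994 CPM in the highest. The part of count depth in the tightness of r, which chose the genes, was not tested.

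Together the 150 genes took 1.13% of the counts in the lowest library, 2.06% in the median library and 4.08% in the highest. The library with the lowest intergenic fraction (9.91%, a female dissected on day 10 by the other of the 2 dissectors, RIN 9.1, median CV coverage 0.489) had the largest share, 4.08%. In the library with the highest intergenic fraction (17.3%, a female dissected on day 9 by dissector One, RIN 9.2, median CV coverage 0.419) the share was 1.23%. Every member was higher in the first than in the second, by 2.17 to 5.94-fold.

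**Figure D2:**
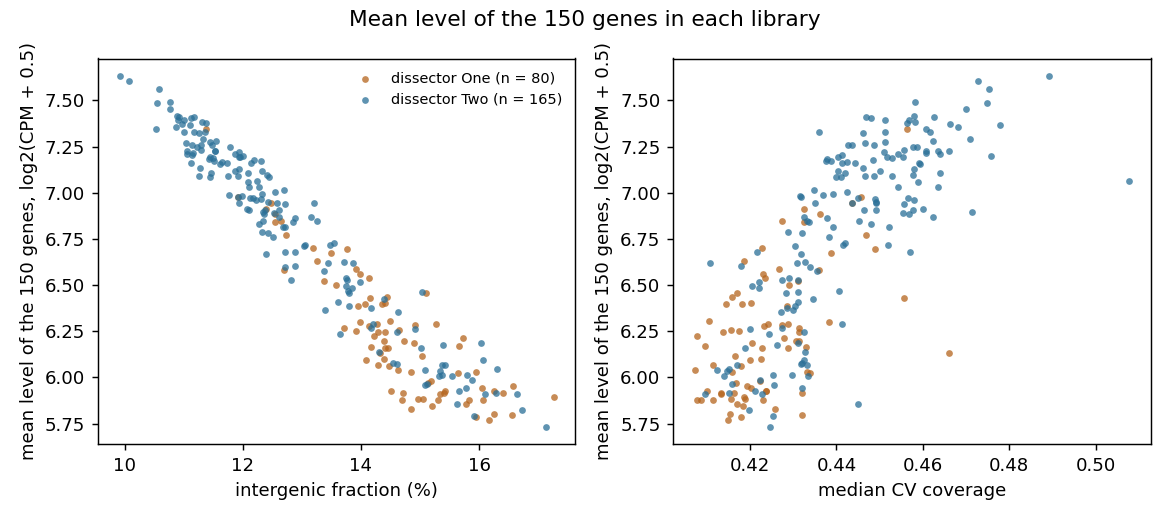
Mean log2(CPM + 0.5) of the 150 genes in each of 245 libraries (y axes) against the intergenic fraction in percent (left) and median CV coverage (right), colored by dissector (One, n = 80, and the other dissector, n = 165). The level falls along the left panel with r = -0.962 and rises along the right with r = 0.794, and libraries of dissector One lie mostly at the high intergenic, low level end.

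The fitted slope of the members on the intergenic fraction ran from -0.44 to -0.19 log2 units per percentage point (median -0.29). The median slope of all genes was 0.05 per percentage point, and scaling changed both by about the same amount. With TMM scaling (trimmed mean of M-values) the medians were -0.31 for the members and 0.03 for all genes, and with DESeq2 size factors -0.33 and 0.01. The gap between them was -0.34 under each scaling.

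Of the genes of protein turnover, Psmb1 had a steeper slope than the median member and Psmd13 and Erlin1 had slopes near it (-0.30 for both). Psmb1 encodes a beta subunit of the 20S proteasome core. It was at 135 CPM in the lowest library, 349 CPM in the median and 925 CPM in the highest, and its slope was -0.39 ± 0.01 (SE) log2 units per percentage point. Psmd13, a subunit of the lid of the 19S cap that admits substrates to the core, ran from 122 CPM through 224 CPM to 493 CPM. Erlin1, an endoplasmic reticulum protein that takes part in the degradation of activated IP3 receptors, ran from 25.9 CPM through 60.2 CPM to 125 CPM. In all 3 the highest library exceeded the lowest by at least 4.03-fold.

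The proteasome list holds 3 more genes that could be named, and none was a member. Psmd8 had r = -0.898 with the intergenic fraction, Psmc4 -0.836 and Psma1 -0.796. All 5 listed proteasome genes thus had a negative r, as had 5749 of the 13743 genes.

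The mitochondrial genes come next, grouped by function and not by a list, with no share of all named genes counted beside them. Uqcrc2, a core protein of respiratory complex III, was at 239 CPM in the lowest library, 443 CPM in the median and 810 CPM in the highest. Prdx3, the peroxiredoxin that removes hydrogen peroxide in the mitochondrial matrix, ran from 54.8 CPM through 120 CPM to 299 CPM, the widest relative range of this group, 5.46-fold. Sdhaf2, an assembly factor that attaches the flavin cofactor to succinate dehydrogenase, had one of the narrowest, from 53.6 CPM through 90.5 CPM to 141 CPM (2.64-fold). Both kinds of gene met the rule, since r measures how tightly a gene follows the fraction and not how far it moves.

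Mrpl16, a protein of the large subunit of the mitochondrial ribosome, lay between 20.4 and 101 CPM (median 43.4). Ngrn, needed for the rRNA of that same subunit, lay between 71.4 and 358 CPM (median 153). Armc1, involved in the distribution of mitochondria, lay between 42.6 and 120 CPM (median 75.3). Among the 18 named genes of the nuclear-encoded respiratory chain list, 17 had a negative r and 1 was a member (Uqcrc2). Sdha, the catalytic subunit of succinate dehydrogenase, was the exception at r = 0.635. Of the 17 named cytosolic ribosomal protein genes all had a negative r (median -0.909) and none was a member. By contrast all 7 named genes of the glutamatergic synapse list, all 4 of voltage-gated channels and all 5 chromatin regulators had a positive r, with medians of 0.839, 0.857 and 0.925. Over all genes 7994 of 13743 had a positive r. Other lists went both ways. Splicing and RNA binding had 4 negative and 6 positive, chaperones 3 and 4, translation factors 8 and 4, and glycolysis 2 and 2. None of these named genes was a member, and no named member belonged to the other lists or among the cell type markers. The 132 members without a name could not be looked up in the lists.

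Of the methylation genes, Prmt1, the main asymmetric arginine methyltransferase of mammalian cells, lay between 77.5 and 327 CPM (median 156). Clns1a, a chloride channel-associated protein that delivers Sm proteins to the PRMT5 methylosome, lay between 57.2 and 296 CPM (median 123) with a slope of -0.37 ± 0.01 (SE). Wtap, the regulatory subunit of the complex that writes N6-methyladenosine on mRNA, lay between 70.2 and 226 CPM (median 129). The 2 genes of small ribosomal subunit assembly were the least abundant of those named. Riok2, an atypical kinase of late 40S maturation, had a median of 28.5 CPM (range 14.7 to 63.9) and Ltv1, a 40S assembly factor, a median of 37 CPM (range 17.1 to 66.8).

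Pcmt1, which repairs isoaspartyl damage in aging proteins, was at 169 CPM in the lowest library, 327 CPM in the median and 678 CPM in the highest. Ppp1ca, a catalytic subunit of protein phosphatase 1 that acts at synapses and elsewhere, ran from 244 CPM through 466 CPM to 1049 CPM. Ilk, the integrin-linked kinase of focal adhesions, ran from 74.9 CPM through 131 CPM to 266 CPM. Pdcd6, a calcium-binding protein of membrane trafficking, ran from 31.7 CPM through 70.9 CPM to 162 CPM. For Pcmt1, Ppp1ca and Pdcd6 the highest value was in the library with the lowest intergenic fraction.

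**Figure D3:**
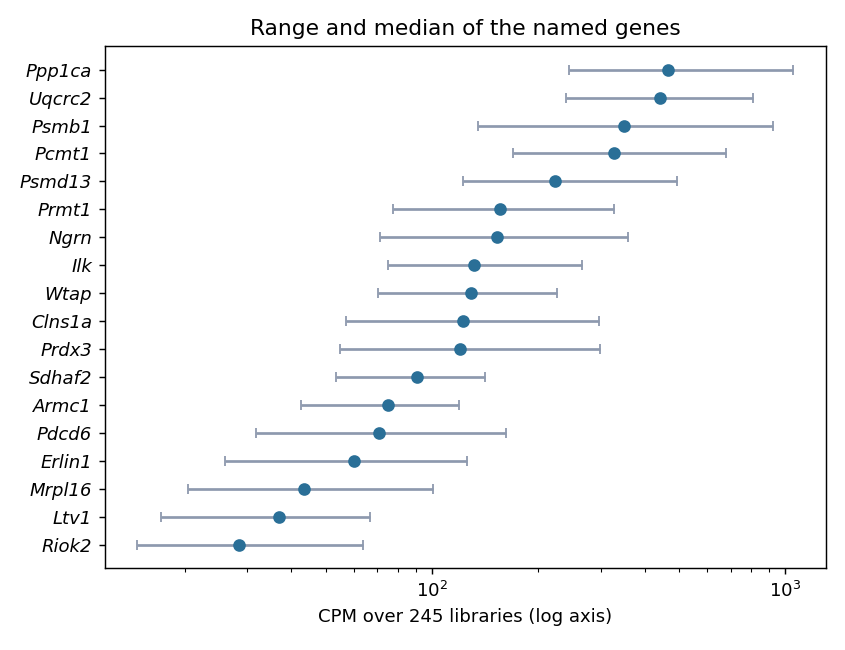
CPM (log x axis) of the 18 named genes over 245 libraries, with the line from the lowest to the highest library and the point at the median. Riok2 has the lowest median (28.5 CPM) and Ppp1ca the highest (466 CPM), and the lines span 2.64 to 6.84-fold.

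The members varied together. Over their 11175 pairs the correlation of log2(CPM + 0.5) had a median of 0.973 (lowest 0.907, highest 0.995), which the shared choice makes high, against a median of 0.11 over all pairs of the 13743 genes. After the intergenic fraction was removed from each gene by linear regression the median was 0.725 for the members and 0.0892 for all pairs. The members thus shared variation that a straight line on the intergenic fraction left over. The shared choice bears on this value too, and all pairs mix genes that rise and genes that fall along the fraction. The pairs share their libraries and genes are not independent replicates, so no test was made.

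The values that chose the genes are given next within subsets of the same libraries, as a description that lends the choice no support. Within the 3 sequencing batches (95, 94 and 56 libraries, read from breaks in the library numbers) the median r of the members was -0.933, -0.957 and -0.942. Within dissector One it was -0.855 (n = 80) and within the other dissector -0.953 (n = 165). Within males and females it was -0.945 and -0.956. Within each of the 10 dissection days, of 11 to 34 libraries, the median lay between -0.974 (day 8) and -0.923 (day 7), and the weakest r of a single member was -0.653, on day 14.

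The question of which other library measures moved with the intergenic fraction was examined with 15 correlations and a two-sided permutation test for each (100000 resamples, smallest possible p = 1e-05), adjusted over the 15 by Benjamini-Hochberg and read as passed at an adjusted p below 0.05. Median CV coverage fell as the intergenic fraction rose (r = -0.766, rho = -0.798, p = 1e-05 for both, adjusted p = 3.75e-05 and 2.5e-05, n = 245). Without the 2 libraries farthest from the median fraction r was -0.769, and within the 3 batches it was -0.752, -0.798 and -0.74. The RNA concentration of the sample rose with it (r = 0.666, rho = 0.689, p = 1e-05 for both, adjusted p = 3.75e-05 and 2.5e-05), with r = 0.67 without those 2 libraries and 0.562, 0.772 and 0.722 within batches. The rRNA fraction fell with it (r = -0.777, rho = -0.822, p = 1e-05 for both, adjusted p = 3.75e-05 and 2.5e-05; r = -0.783 without those 2 libraries), and within batches r was -0.766, -0.817 and -0.764. The rRNA, intronic and mRNA fractions enter the computation of the intergenic fraction, so part of these relations is built in.

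RIN had a weaker relation that was not the same in each batch. Over all libraries r was 0.185 (rho = 0.289, permutation p = 0.00385 and 1e-05, adjusted p = 0.00722 and 2.5e-05) and without the 2 farthest libraries it was 0.182. Within batches r was 0.234, 0.598 and -0.281, with adjusted p-values of 0.0544, 3e-05 and 0.135, so the relation passed within batch 2 alone and had the opposite sign in batch 3. Dissection day likewise had r = -0.299 (rho = -0.294, permutation p = 2e-05 and 1e-05, adjusted p = 6e-05 and 2.5e-05; r = -0.294 without the 2 libraries), but -0.502, 0.0971 and 0.258 within batches, with adjusted p-values of 3.75e-05, 0.659 and 0.157. The day relation therefore held within batch 1 alone.

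Of the remaining relations, those with the intronic fraction (r = 0.53, rho = 0.494, permutation p = 1e-05 for both, adjusted p = 3.75e-05 and 2.5e-05), the UTR fraction (r = -0.194, rho = -0.188, permutation p = 0.00214 and 0.00338, adjusted p = 0.00535 and 0.00634) and the total count (r = -0.193, rho = -0.215, permutation p = 0.00259 and 0.0006, adjusted p = 0.00555 and 0.00129) passed. The UTR and total count relations passed in none of the 3 batches, where r lay between -0.112 and -0.0308 and between -0.129 and -0.0077. The intronic relation had r = 0.423, 0.736 and 0.137 within batches. DV200, the share of RNA fragments over 200 bases, and age did not pass (r = 0.12 and 0.113, adjusted permutation p = 0.0993 and 0.115).

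None of the 5 behaviors had a relation with the intergenic fraction that passed. Pearson r was -0.0656 for LocoScore, -0.0328 for the open arms, 0.000753 for EPM distance, 0.0127 for time immobile and 0.00362 for the PavCA Index, with adjusted permutation p-values from 0.417 to 0.99. Within batches the PavCA Index had r = 0.0315, 0.159 and -0.175 and LocoScore -0.00191, -0.117 and -0.168.

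Between groups, dissector One had an intergenic fraction of 14.6% ± 1.15 (SD, n = 80) and the other dissector 12.8% ± 1.63 (SD, n = 165), which was -1.75 percentage points from One (permutation p = 1e-05, adjusted p = 4e-05 over 4 group comparisons). Within batches the difference was -0.424, -2.61 and -2.11 points, with adjusted p-values of 0.541, 4e-05 and 4e-05, so it did not pass within batch 1. PavCA-trained rats had 13.5% ± 1.75 (SD, n = 208) and untrained rats 12.8% ± 1.24 (SD, n = 37; permutation test, adjusted p = 0.0305). This difference changed sign within batches: 2.03 points in batch 1 (4 untrained rats, adjusted permutation p = 0.031), -0.306 in batch 2 (3 untrained rats, adjusted permutation p = 0.786) and -1.07 in batch 3 (30 untrained rats, adjusted permutation p = 0.00122). Females and males had 13.4% ± 1.83 (SD, n = 123) and 13.3% ± 1.56 (SD, n = 122, adjusted permutation p = 0.672), and the right and left hippocampus differed by -0.118 points (adjusted permutation p = 0.672).

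The share of counts held by the 150 genes followed the same labels, as a description. It was 1.61% ± 0.423 in libraries of dissector One and 2.46% ± 0.736 in those of the other dissector, and the ranges overlapped, from 1.13 to 3.35% and from 1.13 to 4.08%. By dissection day the mean share was lowest on day 1 (1.49% ± 0.649, n = 11) and highest on day 11 (2.83% ± 0.714, n = 30). The other dissector handled every library of days 1, 2 and 3, and days 11 and 14 were sequenced in batch 3 alone. By batch the mean was 2.03% ± 0.672, 2% ± 0.748 and 2.76% ± 0.649, and mean median CV coverage was 0.434, 0.436 and 0.444. Day, dissector and batch thus overlap and are not fully separable in these libraries.

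**Figure D4:**
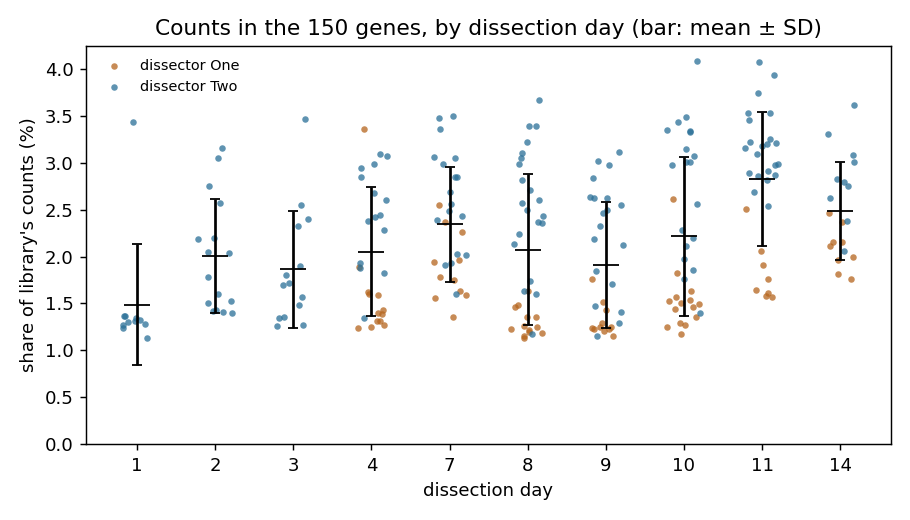
Share of each library's counts in the 150 genes (y axis, percent) by dissection day (x axis), 1 point per library, colored by dissector, with a bar for the mean ± SD of the day. The mean runs from 1.49% on day 1 to 2.83% on day 11, and on most days that both dissectors worked the libraries of dissector One lie in the lower part of the range.

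Other library measures went with the mean level of the members in the direction that their relation with the intergenic fraction sets. Over 245 libraries r of the mean level was 0.86 with the rRNA fraction, 0.794 with median CV coverage, -0.727 with RNA concentration and -0.19 with RIN, and every 1 of the 150 genes had the same sign as the mean for each of these. With the intergenic fraction removed these were 0.654, 0.324, -0.423 and -0.0445. Among named genes, r with the rRNA fraction after removal was highest for Prdx3 (0.773), Mrpl16 (0.745), Psmb1 (0.736) and Clns1a (0.716), and lowest for Ltv1 (0.139) and Ilk (0.248). For median CV coverage after removal it was highest for Ppp1ca (0.428) and Prmt1 (0.388) and close to 0 for Uqcrc2 (0.00617). These correlations share libraries and depth, and no p is given.

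The genes were next compared across labels in the study's model, in which the intergenic fraction and the rRNA fraction were covariates beside sex, dissector, PavCA experience, sequencing batch and LocoScore. This limma-voom fit used 19448 genes, p-values were adjusted over all of them by Benjamini-Hochberg, and a gene was called at a false discovery rate (FDR) below 0.10. What it tests is the part of a member's variation that a straight line on the intergenic fraction did not take up. For median CV coverage, RIN and dissector, the called direction was the one that their relation with the intergenic fraction sets. Those calls are therefore a description and lend the choice of the genes no support. The members are correlated with each other, so counts of them are not counts of independent genes. The 19448 genes include genes below a mean of 1 CPM, while every member had a mean of at least 21.0 CPM. The choice by r also bears on the residual SD around a straight line on the intergenic fraction. Its median was 0.162 log2 units for the members and 0.214 over the 13743 genes. At the same change, a gene with a smaller residual SD is called more easily. The shares of all genes given below are therefore not matched to the members by abundance or by residual SD.

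With median CV coverage added to that model, 71 of the 150 genes rose and 0 fell, where 21% of all genes were called in either direction and 12.9% were called as rising. The median change of the members was 0.02 log2 units per 0.01 of median CV coverage, with single genes between -0.01 and 0.05. Among named genes Ppp1ca rose by 0.03 ± 0.01 (SE; adjusted p = 0.000454), Prmt1 by 0.03 ± 0.01 (SE; adjusted p = 0.000674), Prdx3 by 0.03 ± 0.01 (SE; adjusted p = 0.00504) and Mrpl16, Pcmt1 and Psmb1 by 0.02 to 0.03 (adjusted p = 0.0131, 0.0273 and 0.0692). Of the 18 respiratory chain genes 9 rose and 0 fell, and of the 5 proteasome genes 1 rose and 0 fell. The other 79 members did not pass, and with family as a further term 40 members were called.

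With RIN added, 85 of the 150 genes fell as RIN rose and 0 rose. Of all genes 47.3% were called and 18.5% were called as falling. In either direction the members' 56.7% was not far above the share of all genes. In the falling direction it was further above, but the members vary together, so this is no separate finding. The median change was -0.09 log2 units per RIN unit for the members and 0.06 for all genes. The largest fall was in ENSRNOG00000006655 (-0.24 ± 0.04 SE, adjusted p = 1.57e-06). Armc1 fell by 0.17 ± 0.04 (SE; adjusted p = 1.37e-05), Psmb1 by 0.16 ± 0.04 (SE; adjusted p = 0.00166), Erlin1 by 0.16 ± 0.05 (SE; adjusted p = 0.0018) and Pcmt1 by 0.13 ± 0.04 (SE; adjusted p = 0.0069). All 5 named proteasome genes fell, and so did 7 of the 18 respiratory chain genes, with none of either rising. Prdx3 and Mrpl16, which rose with median CV coverage, were not called for RIN. The range of RIN is narrow here, from 8.4 to 9.7, so a whole unit spans most of it.

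PavCA experience came next: 63 of the 150 genes were higher in trained rats and 0 lower, where 9.19% of all genes were called and 5.35% were called as higher. The median difference was 0.07 log2 units for the members and 0.01 for all genes. The unadjusted group means went the other way: the members took 2.14% ± 0.776 (SD, n = 208) of the counts in trained and 2.43% ± 0.623 (SD, n = 37) in untrained rats, with mean levels of 6.59 and 6.83 on the log2(CPM + 0.5) scale. ENSRNOG00000015122 differed most clearly (0.14 ± 0.03 SE, adjusted p = 0.000752), and Psmd13 (0.13 ± 0.03 SE, adjusted p = 0.00381), Ilk (0.11 ± 0.03 SE, adjusted p = 0.012), Uqcrc2 (0.11 ± 0.03 SE, adjusted p = 0.0124), Prmt1 (0.08 ± 0.03 SE, adjusted p = 0.0417) and Prdx3 (0.08 ± 0.03 SE, adjusted p = 0.0852) were called too. The untrained rats were 37, of which 30 were in batch 3 and 30 were dissected on days 11 and 14. With dissection day in the model 10 members were called, with the square of the intergenic fraction added 20, and without the intergenic fraction 0. PavCA experience and dissection day overlap, and how much of the difference belongs to either was not tested further. The members vary together and were chosen by their fit to a covariate of this model, so their count is no separate finding.

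Between dissectors 22 of the 150 genes were lower with dissector One and 0 were higher, where 14.9% of all genes were called and 5.24% were called as lower with One. In either direction the members' 14.7% was at the share of all genes. In the direction of lower levels with One it was above that share, but the members vary together, so this is no separate finding. Ilk was the 1 named gene among them (0.09 ± 0.02 SE log2 units higher with the other dissector, adjusted p = 0.0071). When the intergenic fraction was taken out of the model all 150 genes were called as lower with dissector One. With dissection day in the model 12 were called, with family 10, and with genes that had a read in any rat 13.

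Sex gave 12 called genes, all higher in females, where 9.08% of all genes were called and 4.04% were called as higher in females. In either direction the members' 8% was below the share of all genes. In the direction of females it was above that share, but the members vary together, so this is no separate finding. None of the 12 could be named, and their differences were at most 0.06 log2 units. Without the intergenic fraction in the model 39 members were called, all in the other direction, lower in females, with its square added 6 were called, and with family as a term 20. No date of death held both sexes, and females were 124 to 132 days old against 113 to 123 in males, so sex cannot be told apart from date of death or age.

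Sequencing batch (a moderated F test over the 3 batches) called 129 of the 150 genes, where 56.7% of all genes were called. Dissection day, as a factor of 10 levels, called 127, where 51.4% of all genes were called. Among genes of mean CPM of at least 1, tested alone, 73% of genes and 130 members were called for batch and 71.1% and 141 for day. With dissection day in the model 26 members were called for batch. Psmd13 (adjusted p = 2.38e-13), Ilk (adjusted p = 1.78e-12) and Uqcrc2 (adjusted p = 9.82e-11) differed most clearly between batches among the named genes, and Prmt1 (adjusted p = 0.000132), Psmb1 and Uqcrc2 (adjusted p = 0.000236 for both) between days.

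**Figure D5:**
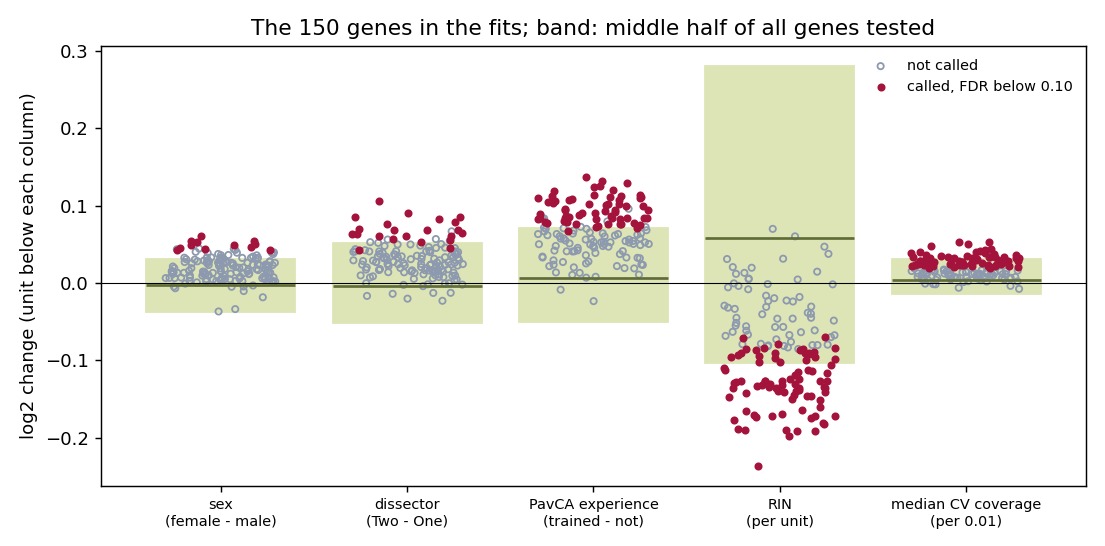
Log2 change of each of the 150 genes (points, filled where called at FDR below 0.10) for sex, dissector, PavCA experience, RIN and median CV coverage, each in the unit under its column. The band spans the quartiles of all 19448 genes tested and the line their median; the members lie above the line for PavCA experience (median 0.07 against 0.01) and below it for RIN (median -0.09 against 0.06).

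None of the 150 genes was called for any of the 5 behaviors by limma-voom, edgeR's quasi-likelihood test or DESeq2's Wald test. The share of all genes called by limma-voom was 0.0103% for LocoScore, 0% for EPM distance, 0% for EPM time immobile, 0% for EPM open arms and 0.00514% for the PavCA Index. At an unadjusted p under 0.05, 0 members passed for LocoScore, EPM distance, time immobile and the PavCA Index. For the open arms 12 members (8%) had such a p, against 3.9% of all genes, and 149 of the 150 had a negative slope; with family in the model 2 members had such a p. Their median slope was -0.00993 log2 units per 10 percentage points of open arm time, with a median SE of 0.00791, and the smallest adjusted p was 0.9996. Per 100 beam breaks of LocoScore, slopes lay between -0.0054 and 0.00434 with a median SE of 0.00276. Per unit of PavCA Index, about the span from no preference to full sign-tracking, slopes lay between -0.02 and 0.04 with a median SE of 0.02. Hippocampal side called 0 members and 0% of all genes, with 1 member at an unadjusted p under 0.05 (0 by edgeR).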

How the data were processed

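Per the labels and the study's methods, the authors aligned reads with STAR 2.7.3a to the rat genome (Rnor6, unique hits) and counted them with Subread 2.0.0 by strand over the genes of Ensembl release 103. The deposited values are raw read counts per gene for 32883 genes and 250 libraries, without normalization, matched to samples by library title, with 0 columns left unmapped. The 5 libraries labelled Failed_QC were left out of the main fits. The intergenic label is damaged, so the fraction was recomputed as 1 minus the mRNA, intronic and rRNA fractions given by the labels. The 3 sequencing batches follow from gaps in the library numbers, since no batch is labelled, and PavCA experience meant any PavCA score. The labels put the rats in 12 families, and rats of a family are kin, so they are not fully independent. The main model has no family term, as in the study's methods, and the permutation tests do not use family. Total counts of 17.9 to 31.5 M per library set the counting precision.

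CPM used the total count per library and a pseudocount of 0.5. The 19448 genes for which 25% of rats or more had a read were tested with limma-voom after TMM scaling in R 4.3.3 (limma 3.58.1, edgeR 4.0.16), with rRNA percentage, intergenic percentage, sex, dissector, PavCA experience, batch and 1 behavior as terms, as in the study's methods. The PavCA Index model had no term for PavCA experience, and the EPM distance model left out 1 rat above 5000 cm. Side, RIN, median CV coverage and dissection day were added to the LocoScore model one at a time. Permutation tests, called at an adjusted p below 0.05, and correlations were run in Python 3.11.15 (numpy 2.4.6). On simulated counts for 19448 genes, limma-voom recovered 100% of 100 genes changed by 0.25 and 50% of 100 changed by 0.1 on the log2 scale between the sexes, with 16 false calls. The alternatives were DESeq2 1.42.0 size factors and Wald test, edgeR's quasi-likelihood test, other filters on low counts, all 250 libraries, and models without the intergenic percentage or with dissection day. Added after seeing the data were the square of the intergenic percentage, family as a factor in each model, and size-factor and filtered-read scaling of r. The members and lists were chosen with earlier results of these data known.

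The genes to be named were the 12 with the most negative r, the 5 most abundant, those next to the limit, up to 5 of the called genes per comparison and the members of the lists. Symbols were taken from the identifier and name columns of the study's supplementary tables, which paired 1888 identifiers, 18 of the 150 members and 1838 of the 13743 genes. The gene table of the reference (GRCr8) holds no Ensembl identifiers. Members that this rule picks but that have no symbol are given by counts and ranges, apart from a few identifiers, and members with a symbol were named whether or not the rule picked them. Checks of gene length or GC content over the 150 are void, as only 12% could be matched.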

Additional observations from a re-analysis of the deposited data

Results flagged for a closer look

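The mean level of the 150 genes, as log2(CPM + 0.5), stood apart in 1 of the 5 libraries labelled Failed_QC. It was 6.08 in replicate 1 (RIN 7.5, intergenic fraction 14.8%, 1.41% of counts in the 150 genes), against 7.11 to 7.49 in the other 4 (intergenic fraction 10.5 to 11.8%). The gap to the nearest library was 0.729 of the whole range of the 5, above Dixon's critical value of 0.71 for 5 samples. That value assumes samples of 1 population, which these are not, so it only marks the library and is no test of it. The level of 6.08 is ordinary among the 245 libraries of the main analyses, which ran from 5.73 to 7.63, with a mean of 6.07 on dissection day 1. The intergenic fraction (0.698) and the share of counts (0.622) of the same library did not pass. The other library with a low RIN (6.6, replicate 5) had a mean level of 7.11 and an intergenic fraction of 11.7%. These 5 libraries failed for different reasons and are not replicates of a condition.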

How the results depend on the processing

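Of 227 alternatives, 188 were labelled as unchanged, by rules that differ between results. A count of kept or called members was unchanged within a set ratio of the main count. The median r was unchanged within the SD between members. A correlation or group difference was unchanged if it kept its sign and its side of the threshold. It was also unchanged if neither setting passed, whatever the sign. The choice of members depended most on the scaling of CPM: with TMM-scaled CPM 96 of the 150 genes were kept. With Spearman's rho 133 were kept and with all 250 libraries 142. A pseudocount of 2, a mean CPM of at least 10 or no filter kept all 150. The median r of the members (-0.948) moved by more than the small spread between members: to -0.933, -0.957 and -0.942 within batches 1 to 3, -0.855 and -0.953 within dissector One and the other dissector, -0.956 within females, -0.936 with TMM, -0.937 with DESeq2 size factors and -0.953 with scaling by the filtered reads of each library. The relation of the intergenic fraction with RIN (r = 0.185) no longer passed with all 250 libraries (0.132) or within batch 1 (0.234) and had the opposite sign within batch 3 (-0.281). That with dissection day turned to 0.0971 and 0.258 within batches 2 and 3. The difference between dissectors was -0.424 points within batch 1, and that by PavCA experience turned to -0.306 and -1.07 within batches 2 and 3.

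Without the intergenic fraction in the model, 39 members were called by sex (all lower in females), 150 by dissector, 0 by PavCA experience, 150 by RIN and 150 by median CV coverage. With dissection day in the model 12 were called by dissector, 10 by PavCA experience and 26 by batch. With the square of the intergenic fraction 6 were called by sex and 20 by PavCA experience, and with genes that had a read in any rat 13 by dissector. With family in the model, an alternative chosen after seeing the data, 20 were called by sex, 10 by dissector and 40 by median CV coverage, and 68 by PavCA experience and 97 by RIN stayed near the 63 and 85 given. Apart from what leaving a covariate out does by construction, the cause was not tested. The 5 behaviors and hippocampal side kept 0 called members under each alternative. No paired analysis was possible because the replicate numbers only name rats and each rat gave 1 library; the labelled family is the 1 grouping that could enter the fits, as above. Depth limits the least abundant members little, since the lowest mean was 21.0 CPM in libraries of at least 17.9 M counts.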

Other observations

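Cell type markers outside the 150 genes went both ways along the intergenic fraction, as a description over the same 245 libraries. The neuronal markers Rbfox3 and Slc17a7 rose along it (r = 0.931 and 0.893). Of those that went the other way, Vip, a peptide of a class of GABA interneurons, had r = -0.883 (7.88 to 105 CPM), the beta-globin gene Hbb -0.824 (41.7 to 1474 CPM) and Slc1a3, an astrocyte glutamate transporter, -0.825 (555 to 1615 CPM). The other astrocyte markers went the opposite way, with r = 0.811 for Aqp4 and 0.633 for Gfap. Mag, a myelin protein, had r = 0.405 and the microglial integrin Itgam 0.43.

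With the intergenic fraction removed, the mean level of the 150 genes had r = -0.526 with the mRNA fraction and 0.389 with the UTR fraction (n = 245), where it had 0.893 and 0.291 before. With the PavCA Index it was 0.219 after removal and 0.0579 before (n = 205), and with EPM distance 0.143 and 0.0383 (n = 244). These values hold no adjustment for sex, batch or the rRNA fraction.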
